A study of Homo sapiens with 12 samples.

Results

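The 10 genes described here encode RNA-binding proteins whose levels differ between tissues and which set tissue-specific splicing: RBFOX2, PTBP1, PTBP2, PTBP3, MBNL1, MBNL2, MBNL3, CELF1, CELF2 and QKI. They were taken by name from the 58780 gene IDs in the count tables, and all 10 were found. Poly(A)+ RNA was sequenced from HEK293 cells, a human line derived from embryonic kidney, here a Flp-In T-REx derivative that carries a site for inducible transgenes. In triple KD, siRNAs against SAFB1, SAFB2 and SLTM were transfected together. SAFB1 KD and SLTM KD cells received 1 of these siRNAs, with negative control siRNA added so that the total matched triple KD. For control cells, given only control siRNA, no amount is stated. Cells of all 4 groups were thus siRNA-transfected and were harvested on the second day, and each group has 3 libraries, which the series text calls biological replicates, so that p-values measure the spread between these libraries of 1 cell line. SAFB2 KD was not analysed here. SAFB1 (gene symbol SAFB), SAFB2 and SLTM are related nuclear proteins that bind purine-rich RNA, and the question put to these genes is whether their mRNA levels differ when that family is depleted.

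The members act on pre-mRNA in position-dependent ways. RBFOX proteins bind UGCAUG next to alternative exons, PTBP proteins bind pyrimidine-rich tracts and mostly repress exons, MBNL proteins bind YGCY repeats and drive the switch from fetal to adult exon choice, CELF proteins bind UG-rich RNA and often oppose MBNL proteins, and QKI binds ACUAAY and acts on splicing and on circular RNA formation. PTBP1 is the form of most dividing cells and PTBP2 that of neurons, and a fall of PTBP1 with a gain of PTBP2 is a known step in making neurons. Several of these proteins also act on their own transcripts, through exons whose inclusion or skipping alters the protein or exposes the mRNA to decay.

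Such exons are shown here because they are the stretches through which 3 of the families are known to act on their own mRNAs. Each is preceded by 50 bases of the intron before it, read 5′ to 3′ on the gene's strand from GRCh38, with the exon in capitals. In RBFOX2 the exon encodes part of the RNA recognition motif, and RBFOX proteins favour its skipping. In PTBP1 and PTBP2 skipping of the exon, which PTBP1 favours, shifts the frame and exposes the mRNA to decay. In MBNL1 and MBNL2 the exon adds to nuclear localisation, and MBNL proteins favour its skipping.
RBFOX2: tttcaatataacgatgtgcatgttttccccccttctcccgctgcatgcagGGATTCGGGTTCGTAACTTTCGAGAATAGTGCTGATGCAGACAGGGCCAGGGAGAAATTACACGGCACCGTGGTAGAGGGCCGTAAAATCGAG
PTBP1: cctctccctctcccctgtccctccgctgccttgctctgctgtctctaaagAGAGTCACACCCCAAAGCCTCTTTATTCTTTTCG
PTBP2: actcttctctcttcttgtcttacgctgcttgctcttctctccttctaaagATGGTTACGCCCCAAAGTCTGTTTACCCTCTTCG
PTBP3: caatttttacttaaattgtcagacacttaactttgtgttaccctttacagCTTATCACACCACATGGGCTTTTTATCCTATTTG
MBNL1: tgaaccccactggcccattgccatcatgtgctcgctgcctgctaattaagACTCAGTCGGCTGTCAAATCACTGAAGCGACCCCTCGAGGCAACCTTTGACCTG
MBNL2: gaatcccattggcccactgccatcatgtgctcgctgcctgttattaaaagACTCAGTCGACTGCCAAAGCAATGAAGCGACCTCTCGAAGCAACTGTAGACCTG

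The RBFOX2 exon (chr22:35768257-35768349, minus strand, 93 bases) was in 13 of 15 annotated coding transcripts. The PTBP exons have 34 bases each, which is no multiple of 3: PTBP1 at chr19:807869-807902, plus strand, in 7 of 12 coding transcripts, PTBP2 at chr1:96806419-96806452, plus strand, in 9 of 9, and PTBP3 at chr9:112231380-112231413, minus strand, in 5 of 7. The MBNL exons have 54 bases: MBNL1 at chr3:152446704-152446757, plus strand, in 5 of 19 coding transcripts, and MBNL2 at chr13:97356796-97356849, plus strand, in 4 of 10. Position by position, the PTBP1 and PTBP2 exons share 25 of 34 bases (73.5%), those of PTBP1 and PTBP3 share 22 (64.7%), those of PTBP2 and PTBP3 share 21 (61.8%), and the MBNL1 and MBNL2 exons share 45 of 54 (83.3%).

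Motifs were counted on the sense strand in the 100 bases before each exon, and set beside the same window before 155661 internal coding exons of 14107 genes. None of the 3 strings contains another. TGCATG, the RBFOX site, occurs 2 times before the RBFOX2 exon, starting 34 and 9 bases before it, while 2.83% of all windows hold it at least once and 0.0822% hold 2 or more. TGCT, one form of the MBNL site, occurs 5 times before the MBNL1 exon and 3 times before the MBNL2 exon, against 5 or more in 0.0957% and 3 or more in 2.77% of all windows. CTCTCT, a PTBP string, occurs 1 time before the PTBP2 exon and not before the PTBP1 and PTBP3 exons, and 8.89% of all windows hold it. TGCT also occurs 2 times before each of the PTBP1 and PTBP2 exons and 1 time before that of PTBP3, while 44.6% of all windows hold it at least once. These matches are a description of sequence. The counts are per gene, so use of these exons is not measured here.

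Library totals ran from 56856228 to 75533510 reads counted, and the members drew from 1200 reads (MBNL2) to 52526 reads (PTBP1) per library. The targeted genes fell where targeted: SAFB was at 36.9 to 40 CPM (counts scaled to library size and adjusted by TMM) in triple KD and 44.3 to 46.1 CPM in SAFB1 KD, against 230 to 235 CPM in control, and SLTM at 22.6 to 26.6 CPM in triple KD and 19.3 to 22.7 CPM in SLTM KD, against 114 to 117 CPM in control. SAFB2 was at 28.2 to 30.4 CPM in triple KD and at 206 to 213 CPM in SAFB1 KD, against 125 to 129 CPM in control. All 8 genes of a list that marks HEK293 cells were above 1 CPM, and their sum was 284 to 286 CPM in triple KD, 357 to 370 CPM in SAFB1 KD and 311 to 318 CPM in SLTM KD, against 329 to 333 CPM in control, with 6 of the 8 lower and 1 higher in triple KD. NEFL had the largest part of this sum, at 147 to 148 CPM in triple KD and 193 to 199 CPM in control. It was at 217 to 228 CPM in SAFB1 KD and 176 to 182 CPM in SLTM KD. Shifts of the sum thus mostly followed this gene. Of 6 neuron markers 5 were above 1 CPM, with a sum of 33.5 to 36.1 CPM in triple KD, against 33 to 34.3 CPM in control, and SYN1 (log2 fold change 0.68) and SYP (0.47) were higher and SNAP25 (-0.34) and RBFOX3 lower in triple KD. Of the colon epithelium and fibroblast lists 1 gene each was above 1 CPM, CDX2 (27.3 to 33.3 CPM) and COL1A1 (11.5 to 13.7 CPM), and muscle, squamous epithelium and leukocyte markers were each under 1 CPM. Mitochondrial transcripts took 4.11 to 4.51% of reads in triple KD, 3.40 to 3.68% in SAFB1 KD and 3.89 to 4.25% in SLTM KD, against 3.31 to 3.61% in control. The part of these shifts in the members' values was not tested. In such bulk RNA, fewer cells of a type and less RNA per cell cannot be told apart.

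Per kb of annotated exon, PTBP1 was far above the rest in control cells, with 92.4 ± 0.31 CPM per kb (SD, n = 3). CELF1 followed with 12.9 ± 0.244, MBNL1 with 11.8 ± 0.311, RBFOX2 with 11.1 ± 0.24, PTBP3 with 9.36 ± 0.128 and CELF2 with 8.55 ± 0.187 CPM per kb. QKI had 6.95 ± 0.235, MBNL2 4.6 ± 0.12, MBNL3 2.49 ± 0.072 and PTBP2, the neuronal paralogue, 1.2 ± 0.0198 CPM per kb. In control no 2 neighbours in this order overlapped between libraries. In triple KD RBFOX2 was next after PTBP1, with 16.9 ± 0.179 CPM per kb, and the range of PTBP3, 8.18 to 9.19 CPM per kb, overlapped those of CELF2, 9.04 to 9.43, and QKI, 8.18 to 8.97. The order of levels rests on the exon length used, while a difference between groups within a gene does not.

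**Figure D1:**
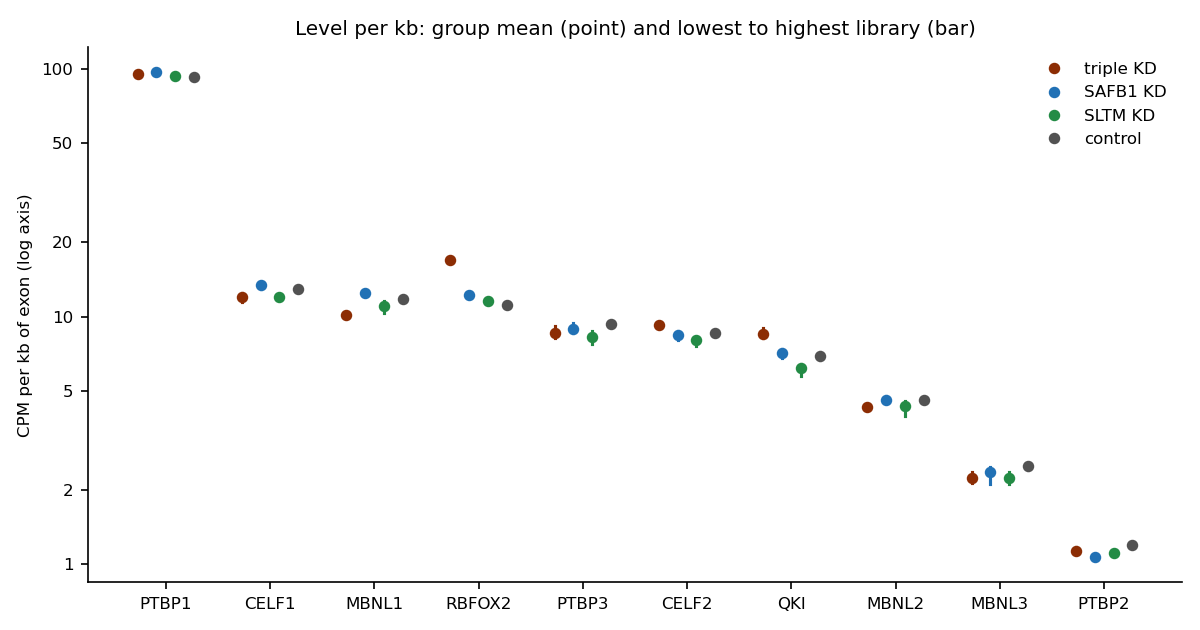
Level of each factor per kb of exon, on a log axis, ordered by the control level; points are means of 3 libraries in triple KD, SAFB1 KD, SLTM KD and control, and bars run from the lowest to the highest library. PTBP1 stands at 92.1 to 97.6 CPM per kb over all libraries, RBFOX2 is above CELF1 only in triple KD, and PTBP2 is the lowest in each group. The order of the genes rests on the exon length used.

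In triple KD against control, 7 of the 10 members were called (adjusted p under 0.05, edgeR): RBFOX2, QKI and CELF2 rose, and MBNL1, MBNL3, PTBP3 and CELF1 fell. Across all 26688 genes tested, 40.3% were called, 19.4% higher and 20.9% lower, and among the 9970 genes that averaged 10 CPM or more, as all members did, 71.2% were called. The members were thus called about as often as other genes of such levels. Their libraries did not overlap between the groups for any of the 10 genes, with 4 above and 6 below control, where 48.1% of all genes tested did not overlap. This share, like those given below for SAFB1 KD and SLTM KD, includes genes with few counts. It was not computed for genes that averaged 10 CPM or more. The median log2 fold change over the members was -0.08, and over all genes tested it was -0.00436. No member passed a test for a change over 2-fold.

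RBFOX2 had the largest change of the members. It was at 207, 211 and 208 CPM in triple KD, against 134, 139 and 139 CPM in control. The SAFB1 KD libraries, at 147, 152 and 153 CPM, and the SLTM KD libraries, at 141, 146 and 142 CPM, lay between these groups, and every knockdown library was above every control library. The triple KD log2 fold change was 0.60 ± 0.023 (SE), a 1.52-fold higher level, with adjusted p = 3.66e-32. Of the 9970 genes with at least 10 CPM, 4.42% had a larger change in either direction. The RBFOX2 gene spans 290 kb (chr22:35738736-36028824, minus strand).

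QKI was at 156, 147 and 142 CPM in triple KD, against 125, 121 and 116 CPM in control, a log2 fold change of 0.30 ± 0.030 (adjusted p = 6.05e-13). All triple KD libraries were above all control libraries. In SLTM KD the same gene was at 111, 112 and 99.5 CPM, below every control library, while in SAFB1 KD, at 128, 124 and 118 CPM, it overlapped control. QKI (chr6:163414000-163578592, plus strand) encodes a STAR-family protein best known from myelinating glia and also present in many other cells.

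The 2 CELF genes moved apart in triple KD. CELF2 was at 103, 104 and 99.7 CPM in triple KD, against 95.4, 95.7 and 92 CPM in control (log2 fold change 0.11 ± 0.028, adjusted p = 0.000536). CELF1 was at 127, 131 and 120 CPM in triple KD, against 137, 139 and 134 CPM in control (log2 fold change -0.11 ± 0.025, adjusted p = 0.000229). CELF2, which is high in brain, muscle and T cells, was above control in every library and CELF1, the widely present form, below it. The group means were 108% of control for CELF2 and 92.6% for CELF1. CELF1 lies at chr11:47465933-47565569, minus strand, and CELF2 at chr10:10798397-11336675, plus strand.

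MBNL1, the main MBNL protein of most tissues, was at 104, 101 and 98.9 CPM in triple KD, against 121, 119 and 115 CPM in control (log2 fold change -0.22 ± 0.027, adjusted p = 2.45e-10). Every triple KD library was below every SAFB1 KD and control library, while the highest overlapped the lowest SLTM KD library, at 103 CPM. MBNL3, which is mostly known from placenta and from muscle precursors, was at 30.6, 29.1 and 27.6 CPM in triple KD, against 33, 32.8 and 31.3 CPM in control (log2 fold change -0.15 ± 0.043, adjusted p = 0.00245). MBNL2, the main form in adult brain, was at 23.1, 22.4 and 22.1 CPM in triple KD, against 24.2, 24.3 and 23.2 CPM in control, and missed the threshold (log2 fold change -0.09, 95% interval -0.173 to -3.67e-05, adjusted p = 0.109). MBNL1 lies at chr3:152243828-152465780 and MBNL2 at chr13:97221434-97394120, both on the plus strand, and MBNL3 at chrX:132369320-132489968, minus strand.

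PTBP3, a paralogue best known from blood cells, was at 75.7, 68.7 and 67.4 CPM in triple KD, against 78.3, 76.4 and 76.5 CPM in control (log2 fold change -0.13 ± 0.034, adjusted p = 0.00139). Its triple KD libraries were all below control, although the first of them was close to it. PTBP1 was at 719, 715 and 709 CPM in triple KD, against 693, 697 and 696 CPM in control (log2 fold change 0.04, 95% interval 0.0051 to 0.07, adjusted p = 0.0608). PTBP2 was at 22.4, 23.6 and 22.4 CPM in triple KD, against 24, 24.5 and 23.7 CPM in control (log2 fold change -0.08, adjusted p = 0.122). Neither was called, and no triple KD library had less PTBP1 or more PTBP2 than control. The PTBP3 call was lost with DESeq2 (adjusted p = 0.0994), and PTBP1 was called higher with DESeq2 (0.00555), limma-voom (0.0024), upper-quartile scaling (0.000501), the filterByExpr filter (0.0104), the triple KD and control libraries alone (0.0235) and without SLTM KD replicate 3 (0.0438). Calls that a replicate block changed, in this and the other comparisons, are given in the closing sections. PTBP1 lies at chr19:797075-812327 and PTBP2 at chr1:96721665-96823738, both on the plus strand, and PTBP3 at chr9:112217716-112333664, minus strand.

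**Figure D2:**
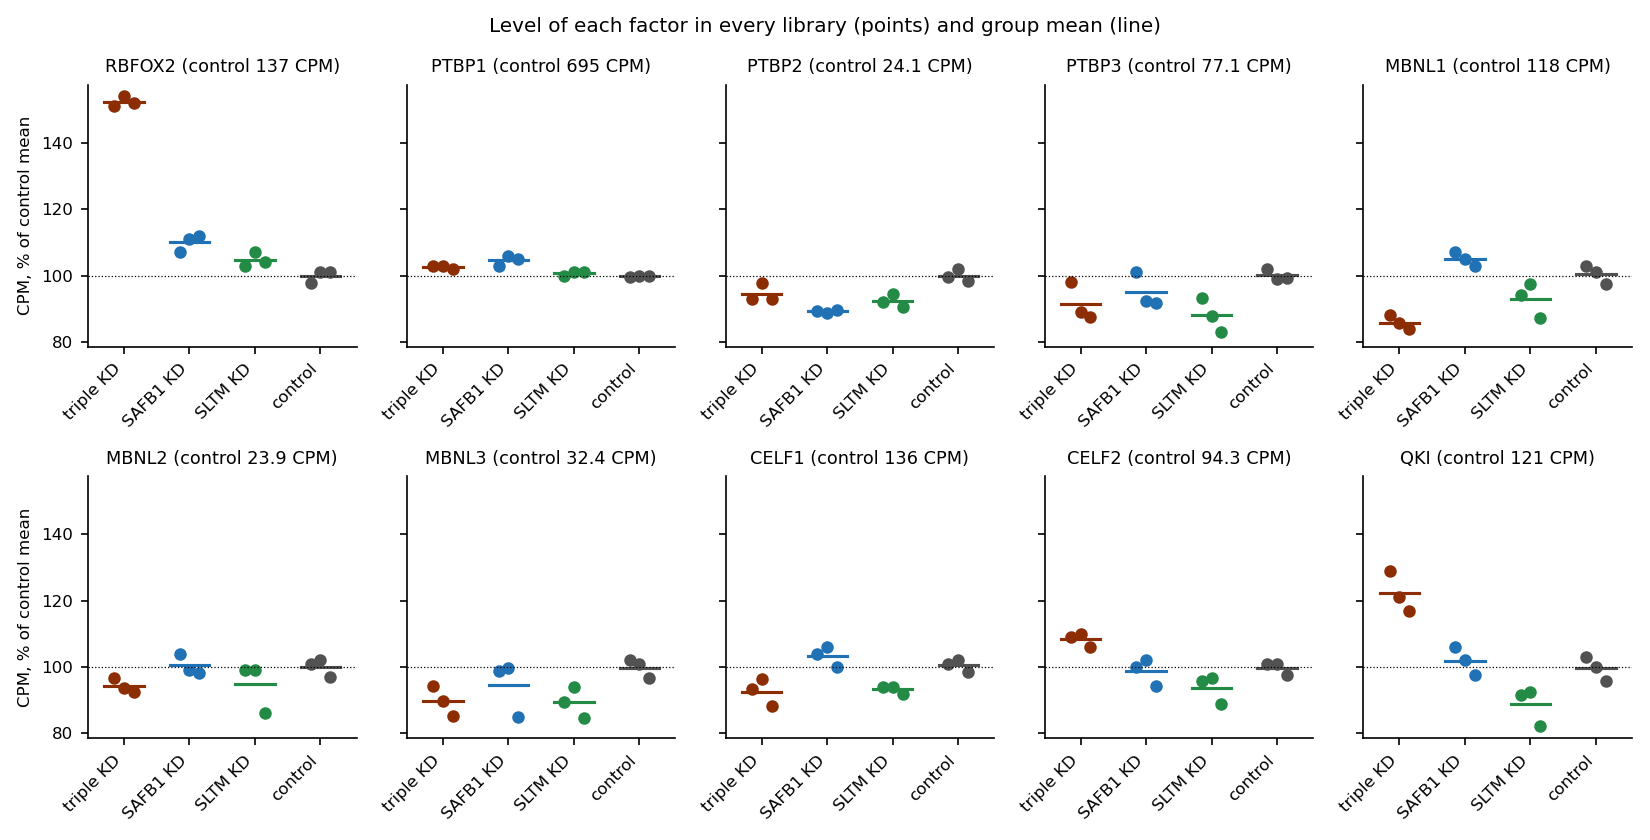
Level of each factor in every library as a percent of the mean of the 3 control libraries, with triple KD, SAFB1 KD, SLTM KD and control from left to right in each panel; points are libraries in replicate order and lines are group means. RBFOX2 stands at 151 to 154% in triple KD and QKI is above control in triple KD and below it in SLTM KD.

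In SAFB1 KD against control, 3 members were called: RBFOX2 and PTBP1 rose and PTBP2 fell. Of all genes tested, 9.66% were called, 5.04% higher and 4.62% lower, and 20.5% of those with at least 10 CPM. RBFOX2 rose to 110% of control (log2 fold change 0.14 ± 0.023, adjusted p = 1.48e-05). PTBP1 was at 718, 734 and 733 CPM in SAFB1 KD, against 693, 697 and 696 CPM in control (log2 fold change 0.07 ± 0.017, adjusted p = 0.00527). PTBP2 was at 21.5, 21.4 and 21.6 CPM, against 24, 24.5 and 23.7 CPM in control (log2 fold change -0.16 ± 0.040, adjusted p = 0.00367). For these 3 genes and for MBNL1, at 126, 124 and 122 CPM against 121, 119 and 115 CPM in control, the libraries of the groups did not overlap, 4 of 10 members where 25.2% of all genes tested did not overlap.

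The other 7 members had log2 fold changes between -0.08 and 0.07 in SAFB1 KD, with adjusted p from 0.114 to 0.972. MBNL1 (0.07), CELF1 (0.05) and QKI (0.03) had values above 0, and PTBP3 (-0.07), MBNL3 (-0.08) and CELF2 (-0.02) values below 0. The PTBP1 call was lost without SAFB1 KD replicate 2 (adjusted p = 0.0573), without control replicate 2 (0.0517) and without control replicate 3 (0.0613), and PTBP3 was called lower without SAFB1 KD replicate 1 (0.0169) and with no filter on low counts (0.0489). The HEK293 marker sum, led by NEFL, was above control in SAFB1 KD, as given above, and its part in these values was not tested.

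In SLTM KD against control, 6 members were called and all 6 were lower: PTBP3, QKI, MBNL1, MBNL3, CELF1 and CELF2. Within SLTM KD all 6 were lowest in replicate 3, so these calls are not independent of each other. Of all genes tested, 9.26% were called, 3.60% higher and 5.65% lower, and of those with at least 10 CPM 20.2%. QKI fell to 89% of control (log2 fold change -0.17 ± 0.031, adjusted p = 6.18e-05). PTBP3 was at 71.9, 67.8 and 63.9 CPM in SLTM KD, against 78.3, 76.4 and 76.5 CPM in control (log2 fold change -0.18 ± 0.034, adjusted p = 8.24e-05). CELF1 was at 128, 128 and 125 CPM, against 137, 139 and 134 CPM in control (log2 fold change -0.10 ± 0.0255, adjusted p = 0.00477). For these 3 genes, all SLTM KD libraries were below all control libraries.

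MBNL1 was at 111, 115 and 103 CPM in SLTM KD, against 121, 119 and 115 CPM in control (log2 fold change -0.11 ± 0.027, adjusted p = 0.00578), and the groups overlapped at 115 CPM. MBNL3 was at 29, 30.5 and 27.4 CPM, against 33, 32.8 and 31.3 CPM in control (log2 fold change -0.16 ± 0.043, adjusted p = 0.00952). CELF2 was at 90.2, 91.1 and 83.8 CPM, against 95.4, 95.7 and 92 CPM in control (log2 fold change -0.09 ± 0.0285, adjusted p = 0.0249). RBFOX2, PTBP1, PTBP2 and MBNL2 were not called, with log2 fold changes from -0.11 to 0.06 and adjusted p from 0.0767 to 0.753. In all, 7 of 10 members did not overlap between SLTM KD and control, RBFOX2 above and 6 below, where 23.9% of all genes tested did not overlap. The HEK293 marker sum, led by NEFL, was below control in SLTM KD and the mitochondrial share above it, as given above. Their part in these values was not tested.

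The SLTM KD calls of MBNL1, MBNL3 and CELF2 were lost when certain libraries were left out, while the values stayed below 0. Without SLTM KD replicate 3 their adjusted p were 0.12, 0.0946 and 0.224, without control replicate 1 they were 0.0624, 0.0554 and 0.108, and 3 members were called each time. CELF2 was also lost without control replicate 2 (0.0935). With upper-quartile scaling 962 higher and 1509 lower genes became 1552 higher and 1146 lower, CELF2 was no longer called (adjusted p = 0.077), and RBFOX2 was called higher (log2 fold change 0.08, adjusted p = 0.0226), so that 5 members were lower and 1 higher.

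**Figure D3:**
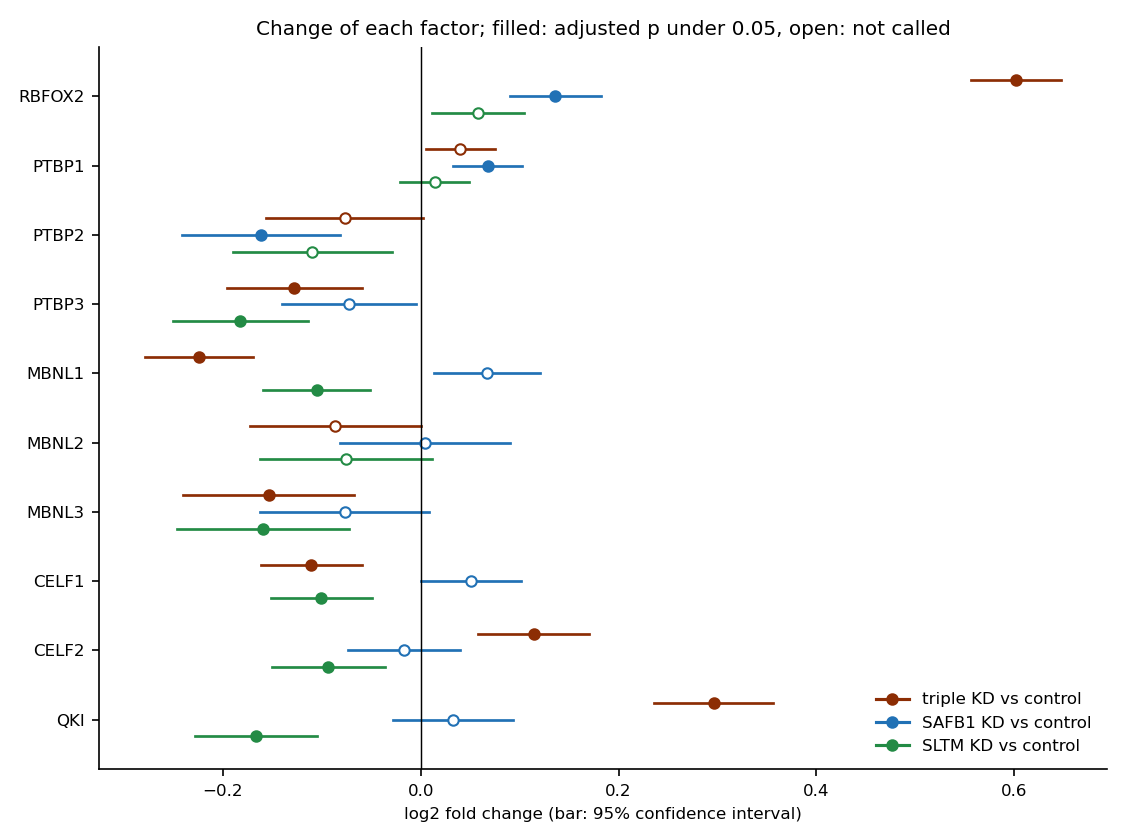
Log2 fold change of each factor over control in triple KD, SAFB1 KD and SLTM KD, with 95% confidence intervals; filled points passed an adjusted p of 0.05 and open points did not. RBFOX2 (0.60) and QKI (0.30) in triple KD lie to the right of all other points, and MBNL1 in triple KD (-0.22) lies farthest to the left.

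The knockdowns were also compared with each other. Triple KD against SAFB1 KD called 5 members, where 34.9% of all genes tested were called, 16.2% higher and 18.6% lower, and 65.1% of those with at least 10 CPM. RBFOX2 (log2 fold change 0.47 ± 0.023, adjusted p = 2.35e-26), QKI (0.26 ± 0.030, adjusted p = 5.37e-11) and CELF2 (0.13 ± 0.028, adjusted p = 0.000108) were higher in triple KD, and MBNL1 (-0.29 ± 0.0275, adjusted p = 6.74e-14) and CELF1 (-0.16 ± 0.026, adjusted p = 3.46e-07) were lower. The other 5 had log2 fold changes from -0.09 to 0.08, with adjusted p from 0.105 to 0.238. Of these, PTBP3 was called lower without triple KD replicate 1 (adjusted p = 0.0296) and MBNL3 lower without SAFB1 KD replicate 3 (0.00474), PTBP2 was called higher with upper-quartile scaling (0.0163) and filterByExpr (0.0382), and PTBP1 lower with limma-voom (0.0419). Triple KD against SLTM KD called 4 members, where 36.3% of all genes tested were called, 17.5% higher and 18.8% lower, and 66.2% of those with at least 10 CPM. RBFOX2 (0.54 ± 0.023, adjusted p = 1.15e-29), QKI (0.46 ± 0.031, adjusted p = 2.99e-20) and CELF2 (0.21 ± 0.0285, adjusted p = 8.93e-09) were again higher, and MBNL1 (-0.12 ± 0.028, adjusted p = 0.000334) was lower. For PTBP3, MBNL3 and CELF1, which fell in both groups against control, the difference between triple KD and SLTM KD was 0.05 (95% interval -0.01 to 0.12), 0.0054 (-0.08 to 0.09) and -0.01 (-0.06 to 0.04) on the log2 scale. PTBP3 was called higher in triple KD once SLTM KD replicate 1 was left out (adjusted p = 0.0401).

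SAFB1 KD against SLTM KD called 6 members, all higher in SAFB1 KD, where 16.0% of all genes tested were called, 9.27% higher and 6.78% lower, and 33.5% of those with at least 10 CPM. QKI (log2 fold change 0.20 ± 0.031, adjusted p = 1.25e-06), MBNL1 (0.17 ± 0.027, adjusted p = 2.06e-06) and CELF1 (0.15 ± 0.026, adjusted p = 7.54e-06) had the largest differences. PTBP3 (0.11, adjusted p = 0.0199), RBFOX2 (0.08, adjusted p = 0.012) and PTBP1 (0.05, adjusted p = 0.0239) differed less, and these 3 calls were lost with upper-quartile scaling, with adjusted p = 0.0608, 0.079 and 0.219. RBFOX2 was also lost without SAFB1 KD replicate 2 or 3 or SLTM KD replicate 1 or 3 (0.0537 to 0.0815), PTBP1 without SAFB1 KD replicate 2 or 3 or SLTM KD replicate 1 (0.0796 to 0.123), and PTBP3 without SAFB1 KD replicate 1 or SLTM KD replicate 2 or 3 (0.0751 to 0.399). PTBP3 was also lost with DESeq2 (0.188) and limma-voom (0.0524), and PTBP1 with only the libraries compared (0.0701). Without SAFB1 KD replicate 3, MBNL3 (0.009) and CELF2 (0.00725) were called higher in SAFB1 KD, and CELF2 also without SLTM KD replicate 2 (0.0342). These comparisons share libraries with those against control and are not independent of them.

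For triple KD, the log2 change was set against the log2 changes of both single knockdowns added together, in 1 contrast of the same fit. SAFB2 is depleted only in triple KD among these groups, so its own part cannot be told apart from a departure from the sum. Other genes of the family were also higher in the single knockdowns. In SAFB1 KD, SAFB2 (log2 fold change 0.73, adjusted p = 4.17e-34) and SLTM (0.26, adjusted p = 2.16e-09) were above control. In SLTM KD, SAFB2 was above control (0.14, adjusted p = 1.15e-05). The part of these rises in a departure from the sum cannot be told apart either. The contrast called 5 members, 4 above the sum and 1 below, where 21.4% of all genes tested were called, 9.48% above and 11.9% below, and 44.6% of those with at least 10 CPM. QKI was highest above the sum: its single knockdowns summed to -0.13 and triple KD was at 0.30, a difference of 0.43 ± 0.043 (adjusted p = 1.8e-12). RBFOX2 exceeded its sum of 0.19 by 0.41 ± 0.0325 (adjusted p = 3.11e-16), and CELF2, with a sum of -0.11, by 0.22 ± 0.040 (adjusted p = 9.77e-06). For QKI and CELF2, the triple KD value and the sum had opposite signs.

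PTBP2 was also above its sum of -0.27, by 0.19 ± 0.057 (adjusted p = 0.00843). MBNL1 was below its sum of -0.04, by a log2 difference of -0.19 ± 0.039 (adjusted p = 0.000136). The other members lay closer to their sums, PTBP3 at 0.13 (adjusted p = 0.0513), MBNL3 at 0.08, PTBP1 at -0.04, CELF1 at -0.06 and MBNL2 at -0.02 from it. PTBP3 was called above its sum under several other settings, with adjusted p = 0.0216 under upper-quartile scaling and 0.00567 with no filter on low counts, and without any 1 of triple KD replicate 2 or 3, SAFB1 KD replicate 1, SLTM KD replicate 1 and control replicate 2 or 3 (0.00318 to 0.0425).

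**Figure D4:**
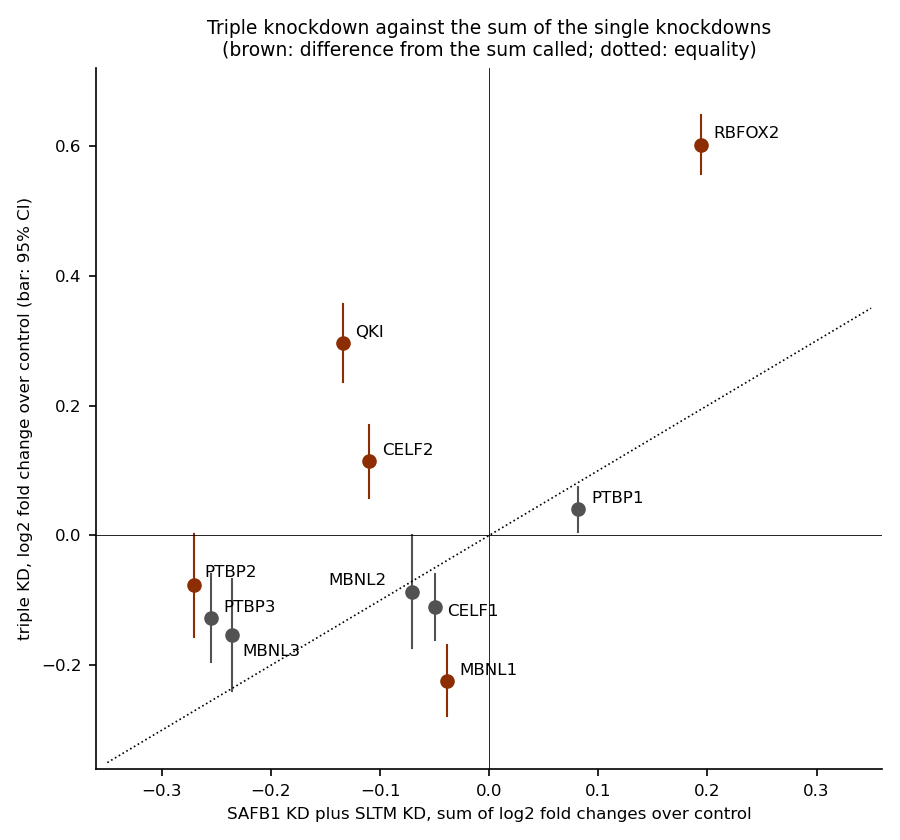
Log2 fold change of each factor in triple KD over control, with its 95% confidence interval, against the added log2 fold changes of both single knockdowns; the dotted line marks equality and brown points are those whose departure from the sum was called. Of these, RBFOX2, QKI, CELF2 and PTBP2 lie above the line and MBNL1 below it.

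Within families, the balance between paralogues was given as each gene's share of the family's summed CPM per kb. CELF2 made up 43.6 ± 0.54% of the CELF1 and CELF2 sum in triple KD, against 39.8 ± 0.15% in control, a difference of 3.8 percentage points (SD, n = 3 each). In SAFB1 KD it made up 38.7 ± 0.27%, and in SLTM KD 39.9 ± 0.83%. MBNL1 took 60.7 ± 0.23% of the MBNL sum in triple KD and 64 ± 0.69% in SAFB1 KD, against 62.5 ± 0.15% in control, with MBNL2 at 25.9 ± 0.14% in triple KD, against 24.3 ± 0.13% in control. PTBP1 took 90.7 ± 0.41% of the PTBP sum in triple KD, 90.7 ± 0.52% in SAFB1 KD and 90.9 ± 0.5% in SLTM KD, against 89.8 ± 0.14% in control. Of 24 such differences from control, 19 had no overlap between groups, and each of these reached 0.1, the smallest p that an exact two-sided permutation test of 3 against 3 allows (0.126 after adjustment), so none could pass 0.05. Shares within a family sum to the whole and are not independent of each other.

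Paralogues and other factors of the same kind were counted from lists. Of 6 paralogues with a narrower range of tissues, 5 were tested, and in triple KD 1 rose and 1 fell, where 40.3% of all genes tested were called. RBFOX3, the NeuN antigen of mature neurons, was at 2.47, 2.22 and 2.26 CPM in triple KD, against 4.45, 5.26 and 5.1 CPM in control (log2 fold change -1.10 ± 0.092, adjusted p = 5.02e-16), opposite in direction to RBFOX2. It was also lower in SLTM KD, at 3.42, 3.82 and 3.83 CPM (-0.43 ± 0.085, adjusted p = 0.000229), and at 5.33, 5.29 and 5.32 CPM in SAFB1 KD it was not called. CELF3, a neuronal CELF protein, was at 0.56, 0.534 and 0.552 CPM in triple KD, against 0.144, 0.322 and 0.424 CPM in control (log2 fold change 0.85 ± 0.277, adjusted p = 0.01), a call that was lost without control replicate 1 (adjusted p = 0.121). CELF5 was near 1.5 CPM and not called (log2 fold change 0.05, adjusted p = 0.846), RBFOX1 was at most 0.12 CPM, and CELF4, called lower in SAFB1 KD (adjusted p = 0.0171) and named after its values were seen, was at most 0.209 CPM.

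Of 25 other tissue-regulated splicing factors, 23 were tested, and in triple KD 7 rose and 7 fell (60.9%), and in SLTM KD 5 fell (21.7%). Of all genes tested, 40.3% were called in triple KD and 9.26% in SLTM KD. Of those with at least 10 CPM, these shares were 71.2% and 20.2%. ESRP2, an epithelial splicing factor, was at 50.5, 49.3 and 49 CPM in triple KD, against 69, 71 and 69.2 CPM in control (log2 fold change -0.49 ± 0.029, adjusted p = 7.84e-23). TIA1 (-0.31, adjusted p = 3.06e-13), KHDRBS3 (-0.32, adjusted p = 1.87e-10) and MSI1 (-0.33, adjusted p = 5.54e-10) fell too, and their triple KD libraries were all below control. TIA1, which binds U-rich RNA behind 5′ splice sites, was also lower in SLTM KD (-0.18, adjusted p = 2.8e-05), as were ELAVL2 (-0.21), RBM47 (-0.16), MSI2 (-0.14) and KHDRBS1 (-0.06), which are named after their values were seen.

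Of 10 proteins that bind RBFOX or PTBP proteins, all were tested, and 5 rose and 2 fell in triple KD (70%). This compares with 40.3% of all genes tested and 71.2% of those with at least 10 CPM. RAVER2, a PTBP1-binding protein, was at 57.3, 57.8 and 56.9 CPM in triple KD, against 42.7, 41.1 and 42.7 CPM in control (log2 fold change 0.44 ± 0.032, adjusted p = 7.74e-19). HNRNPUL2 (0.15, adjusted p = 0.000479) rose and HNRNPH1 (-0.12, adjusted p = 1.12e-06) fell. Both are members of the large assembly of splicing regulators that binds RBFOX proteins. The MATR3 symbol is carried by overlapping gene IDs, so its count of reads is uncertain.

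Other genes overlap the members, 25 in the annotation, and 6 of them were tested. The libraries are strand-specific and the authors used reverse-stranded counts, which keeps genes on opposite strands apart. RAP2C-AS1, a noncoding RNA antisense to MBNL3 (chrX:132217053-132432862), was at 0.893, 0.967 and 0.915 CPM in triple KD, against 1.76, 2.01 and 2.01 CPM in control (log2 fold change -1.06 ± 0.146, adjusted p = 8.17e-09), and was also lower in SAFB1 KD (-0.61, adjusted p = 0.00123). PTPMT1, a mitochondrial phosphatase gene whose start lies within the first part of CELF1 on the other strand (chr11:47565430-47573461), was at 5.69, 5.95 and 4.99 CPM in triple KD, against 2.89, 3.06 and 2.89 CPM in control (log2 fold change 0.91 ± 0.087, adjusted p = 7.27e-14). In triple KD RAP2C-AS1 was thus lower, like MBNL3, while PTPMT1 rose where CELF1 fell. PTPMT1 lies inside NDUFS3 (chr11:47565336-47584562) on the same strand, so strand does not keep the counts of these genes apart. In SLTM KD, where MBNL3 fell, RAP2C-AS1 was at 2.07, 1.53 and 2.15 CPM and was not called (-0.01, adjusted p = 0.971), and in SAFB1 KD, where RAP2C-AS1 fell, MBNL3 was not called. NDUFS3, which overlaps the same end of CELF1, was not called (log2 fold change 0.05, adjusted p = 0.161) but was called higher with upper-quartile scaling (0.0108) and filterByExpr (0.0463), and MBNL1-AS1 was not called (-0.12, adjusted p = 0.105). NDUFA9P1 inside RBFOX2 had 33 reads over the 12 libraries and a Y_RNA inside MBNL1 had 49. Whether these inner genes altered the counts of their hosts was not measured. PTBP1P, the processed pseudogene of PTBP1, had 16 reads.

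Most of the members are long genes. The median gene span of 16029 protein-coding genes tested was 32.8 kb, and all members but PTBP1 (15.3 kb) were longer, up to 538 kb for CELF2. The purine-rich string GAAGAA, of the kind that SAFB proteins bind, had a median density of 0.604 per kb of exon over these genes. RBFOX2 had 0.567, QKI 0.518, MBNL1 0.601 and CELF2 0.363 per kb, PTBP1 had none, and PTBP2 had the most, 0.994 per kb. PTBP3 had 0.607, CELF1 0.474, MBNL3 0.384 and MBNL2 0.192 per kb. Over the whole gene, introns included, the median was 0.452 per kb. CELF2 (0.594), MBNL3 (0.588), MBNL2 (0.585), PTBP2 (0.568), RBFOX2 (0.548) and QKI (0.529) lay above it. MBNL1 (0.446), PTBP3 (0.397), CELF1 (0.321) and PTBP1 (0.131) lay below.

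For the 3 members that differed most over the 4 groups, the genes with the most similar levels were taken from 13441 genes that averaged 1 CPM or more, by Pearson's r of log2 CPM over the 12 libraries. For RBFOX2 these were PLS3 (0.997), CEP170 (0.997) and TGOLN2 (0.996). For QKI they were HMGA2 (0.985), LARP4 (0.985) and ADAM10 (0.982), and for MBNL1 FAM217B (0.976), SHISA2 (0.975) and LIN28B (0.974). The 12 libraries share 4 groups, so these values mostly restate differences between groups and are given with no test.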

How the data were processed

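Per the labels and the methods, strand-specific poly(A)+ libraries were aligned to GRCh38 with STAR (version 2.7.9a), and the authors deposited raw read counts per gene from its gene counting, with strand taken into account. The libraries held 56856228 to 75533510 counts, and 58207 of 58780 IDs (99%) matched a gene name. From these counts, genes with at least 10 reads summed over the 12 libraries (26688) were tested with edgeR 4.0.16 (quasi-likelihood F test, TMM scaling, 1 model over all 4 groups, R 4.3.3), with Benjamini-Hochberg adjustment over all of them and calls at an adjusted p under 0.05. CPM uses TMM-scaled library sizes, and CPM per kb divides by the merged length of annotated exons. Alternatives used upper-quartile scaling, no filter, filterByExpr, a replicate block, a 2-fold test, only the libraries compared, DESeq2 1.42.0, limma-voom 3.58.1, and leaving out each library.

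The 10 genes and all lists were chosen with earlier results of these data known. Beside the members, the text names up to 4 genes per list with the smallest adjusted p in triple KD, all tested genes that overlap a member, and the 3 genes most similar to each of 3 members. Replicates were compared pairwise and none differed by as little as sampling noise. Sequences and coordinates come from the GRCh38 reference. SAFB2 KD was not analysed here. One gene that the rule for named genes picks is not reported here.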

Additional observations from a re-analysis of the deposited data

How the results depend on the processing

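Over 20 other settings, 1265 of 1390 member values kept direction and side of the threshold, 64 lost and 34 gained the call, and 27 changed sign. A test for more than 2-fold change called 0 members in each of the 7 comparisons. Upper-quartile scaling lowered the SAFB1 KD against SLTM KD count to 3 from 6. With a replicate block the SAFB1 KD count against control was 5 in place of 3, with PTBP3 lower (adjusted p = 0.0253) and MBNL1 higher (0.024). The block moved no other count of members by over 1.5 times, and it also called PTBP1 in triple KD (0.0222) and RBFOX2 in SLTM KD (0.0407) higher, CELF2 higher in SAFB1 KD against SLTM KD (0.0112), and PTBP3 above its sum (0.00202). Same-numbered libraries had r over 0.1 in only 1 of 18 pairs (range -0.025 to 0.139). Their median r was 0.0504, against -0.0272 for differently numbered pairs (-0.111 to 0.0636). In every other group, 7 of 12 libraries correlated best with their own number. Same-numbered libraries were thus more alike than others, although their r were small. Whether the numbers mark a shared culture or day is not stated, and the main model holds no replicate term. With the block, 1847 genes were called higher and 1569 lower in SAFB1 KD against control, where the main model called 1345 and 1232. Leaving out 1 library gave 3 to 6 called members in SLTM KD against control. The sign changes were all in uncalled values near 0. Under upper-quartile scaling these were PTBP1 in triple KD against SAFB1 KD (0.00612), MBNL2 (0.00378) and CELF1 (0.00417) in triple KD against SLTM KD, and MBNL2 against its sum (0.000106), and with no filter MBNL2 in SAFB1 KD (-0.0059). Leaving out 1 library gave, in SAFB1 KD against control, -0.0317 to 0.0185 for MBNL2, -0.0457 to 0.0136 for CELF2 and -0.006 to 0.0597 for QKI. In triple KD it gave -0.101 to 0.00306 for PTBP3 against SAFB1 KD, -0.0689 to 0.0257 for MBNL2, -0.0281 to 0.0499 for MBNL3 and -0.0298 to 0.0236 for CELF1 against SLTM KD, -0.0641 to 0.0304 for MBNL2 against its sum, and -0.0288 to 0.175 for CELF5 against control. The cause was not tested. With the longest transcript as length, the share differences from control were -0.175 points for PTBP2 in SAFB1 KD, -1.64 for MBNL1 and 1.38 for MBNL2 in triple KD. No scaling moved the median log2 change of all genes by more than 0.033. Standard errors of the members' log2 changes ran from 0.0174 to 0.0617, which limits what 3 libraries a group can show of small changes.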

Other observations

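Within each of the 4 groups, replicate 3 was the library with the lowest CPM for MBNL1, MBNL2, MBNL3, CELF1, CELF2 and QKI. PTBP2 and PTBP3 were lowest in replicate 3 in 3 of the 4 groups, PTBP1 in 1 and RBFOX2 in none. This pattern was noticed in the values, and its cause was not tested. Over all genes, same-numbered libraries were also more alike, with a median r of 0.0504 against -0.0272 for other pairs.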
